A study of Homo sapiens with 6 samples.

Results

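The 10 genes described here encode alpha and beta tubulin isotypes: TUBA1A, TUBA1B, TUBA1C and TUBA4A for alpha tubulin, and TUBB, TUBB2A, TUBB2B, TUBB3, TUBB4B and TUBB6 for beta tubulin. They were chosen by name, as the 10 rows of the deposited count table with these symbols out of 58735 genes. The rule uses the symbol alone, with no threshold on a measured value, though the members were chosen with earlier results of these data known. RNA was sequenced from SKOV3ip1, an established human ovarian adenocarcinoma line, 48 h after transfection with 2 µg of BARD1 siRNA (3 libraries) or Control siRNA (3 libraries) with the same lipid reagent in both groups. The genotype is given as WT throughout. The labels call the material both cells and tumors, while the protocols describe cultured cells only. No source used here gives the bases of either siRNA. All libraries come from a single cell line, and nothing states whether the numbered biological replicates were transfected on separate days, so the p-values below cover only the spread among these cultures.

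Alpha and beta tubulin form the dimer from which microtubules are built. Each is encoded by several genes whose products, the isotypes, are closely alike in the folded core and differ mainly in the acidic C-terminal tail, where glutamate side chains are added and motors and other partners bind. Tubulin mRNA is also under autoregulation: when free dimers are in excess, the factor TTC5 recognises the first residues of a tubulin chain emerging from the ribosome and directs decay of the mRNA. Isotypes of beta tubulin, TUBB3 above all, are studied in ovarian carcinoma because taxanes, a standard drug class there, bind the beta subunit.

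The first 24 coding bases of the isotypes are shown because they encode the stretch read in autoregulation; the capitals mark the first 12 bases, or 4 codons. One gene is given for each version of these 12 bases found in the GENCODE 29 coding sequences, written 5′ to 3′.
TUBA1B: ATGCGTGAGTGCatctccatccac
TUBA4A: ATGCGTGAATGCatctcagtccac
TUBB: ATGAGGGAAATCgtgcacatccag
TUBB6: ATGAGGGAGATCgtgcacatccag
TUBB2A: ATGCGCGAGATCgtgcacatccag
TUBB2B: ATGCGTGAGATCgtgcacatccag
The 4 alpha genes had 2 versions and the 6 beta genes had 4. Within each family all versions translated to 1 and the same run of residues. Any link of this stretch to the changes below was not tested.

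The last 60 coding bases, without the stop codon, encode the C-terminal tail. They are shown for the 3 most abundant beta isotypes, and the capitals mark in-frame GAA and GAG codons, which encode glutamate.
TUBB: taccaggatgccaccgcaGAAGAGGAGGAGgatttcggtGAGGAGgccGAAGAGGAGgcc
TUBB4B: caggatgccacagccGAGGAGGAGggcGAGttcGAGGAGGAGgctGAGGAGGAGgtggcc
TUBB6: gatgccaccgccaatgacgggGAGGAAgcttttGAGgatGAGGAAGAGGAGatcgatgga
Of these 20 codons, 10 were glutamate codons in TUBB4B, 9 in TUBB and 7 in TUBB6. Codons of aspartate, which is also acidic, ran the other way, with 1 in TUBB4B, 2 in TUBB and 4 in TUBB6. Identity was taken over all columns of a pairwise alignment of the full stretches, gaps included. So measured, these bases are 74.6% identical between TUBB and TUBB4B, 59.1% between TUBB and TUBB6, and 98.3% between TUBB2A and TUBB2B. Over the whole coding sequence, identity within the alpha family was 84.4% to 97.2% and within the beta family 81.0% to 98.2%, against 54.8% to 57.6% between the families.

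That likeness limits how reads can be assigned, since no source used here gives the read length or the handling of reads with several matches. Of all 100-base windows in TUBB2B transcripts, 38.9% also occur in TUBB2A, and 47.2% of those in TUBB2A occur in TUBB2B. The windows of TUBA1A, TUBA1B and TUBA1C are shared among those 3 genes at 5.76% to 11.99%. Matches on either strand were counted, and the highest value, for TUBA1A in TUBA1C, is for genes whose exons also overlap on opposite strands. Over the coding sequence alone TUBB3 is the extreme case, with 95.6% of windows also in another transcript. By that measure TUBA1B was at 72.3%, TUBB at 42.5% and TUBB4B at 3.56%. Over whole transcripts TUBB3 shared 29.7% of windows, less than TUBB2A at 48.9% and TUBB2B at 46.0%. Every shared window of TUBB3 lies in AC092143.1. This annotated gene overlaps its exons on the same strand and had 0 counts in all 6 libraries. Over whole transcripts TUBB4B shared only 3.27% of its windows with any other gene. TUBB shared 15.2%, most of these with an antisense gene of 27 counts in all. TUBA1B shared 28.3%, most of these with the antisense gene AC011603.2, which had 23 counts in all.

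BARD1, the target of the siRNA and the partner of BRCA1 in a ubiquitin ligase, was at 5.91, 6.52 and 9.71 CPM (reads scaled to a common library size) with BARD1 siRNA, against 45.8, 37.8 and 49.2 CPM with Control siRNA. It fell 5.98-fold (log2 fold change of −2.58 with an SE of 0.14, edgeR adjusted p = 1.21e-15). Libraries held 16661374 to 17743404 counts with BARD1 siRNA and 16621108 to 17704645 with Control siRNA, so 1 CPM stood for about 17 reads. Of 10 markers of ovarian carcinoma and epithelium, MUC16 and WT1 were near absent, with 13 and 20 counts in all with BARD1 siRNA against 12 and 25 with Control siRNA. The summed level of the 10 was 4642 to 4772 CPM with BARD1 siRNA and 5387 to 5698 CPM with Control siRNA, and its members went both ways. CD24 averaged 259 CPM with BARD1 siRNA and 1029 CPM with Control siRNA, whereas PAX8 averaged 589 CPM with BARD1 siRNA and 349.8 CPM with Control siRNA. Of 5 leukocyte markers 4 were at 0 throughout, and the 3 endothelial markers together stayed at or below 0.308 CPM with BARD1 siRNA and 0.228 CPM with Control siRNA. The 5 fibroblast markers summed to 15.2 to 20.6 CPM with BARD1 siRNA and 24.8 to 26.0 CPM with Control siRNA; their part in the results was not tested. Of these, COL3A1 averaged 10.8 CPM with BARD1 siRNA and 19.2 CPM with Control siRNA, and COL1A1 went the other way, at 6.71 CPM with BARD1 siRNA and 4.89 CPM with Control siRNA. The 5 neuronal markers, of which ELAVL4 was at 0, summed to 2.19 to 3.26 CPM with BARD1 siRNA and 1.02 to 1.53 CPM with Control siRNA; SYP averaged 2.203 CPM with BARD1 siRNA and 0.954 CPM with Control siRNA. Mitochondrial genes took 4.93% to 5.15% of counts with BARD1 siRNA and 5.23% to 5.73% with Control siRNA, and their part was not tested either.

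Tubulin mRNA was lower after BARD1 silencing, and the drop was carried by the abundant isotypes TUBB, TUBB4B and TUBA1B, with the scarcer TUBA4A and, slightly, TUBA1C also lower. Of the 10 isotypes, all of which passed the filter on low counts, 5 fell, 0 rose and 5 did not pass an adjusted p of 0.05 in the edgeR quasi-likelihood test. Among all 15271 genes tested, 20.3% were called lower and 22.0% higher, 42.3% in all. At an unadjusted p under 0.05 in edgeR, and in DESeq2 and limma-voom, 0 isotypes were likewise higher. The split over all genes depends on the scaling: 3355 genes were higher and 3107 lower with TMM, 2815 higher and 3975 lower with upper-quartile factors, and 2852 higher and 3906 lower with library size alone, while 5 isotypes were lower and 0 higher with each. The median log2 fold change of the 10 was −0.31, beside −0.01 over all tested genes. The 3 libraries of each group did not overlap for 5 of the 10, all of them lower, against 50.4% of all tested genes without overlap, 24.7% lower and 25.8% higher. In bulk RNA, fewer cells with a transcript and less transcript per cell cannot be told apart.

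**Figure D1:**
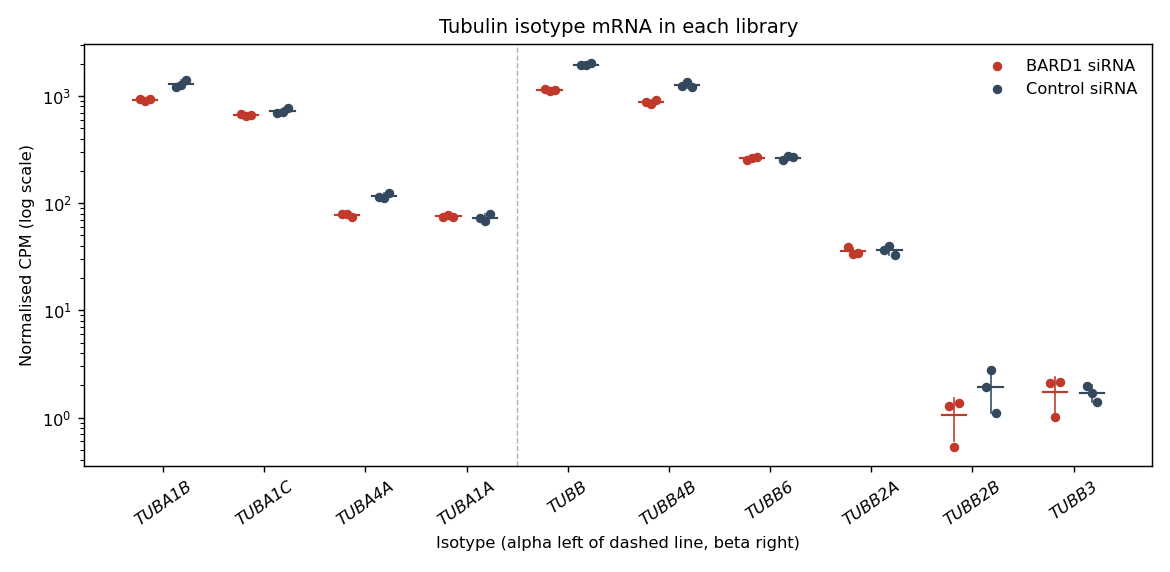
Normalised CPM (log axis) of each isotype in every library, BARD1 siRNA in red left of Control siRNA in dark blue; points are libraries, horizontal lines are group means and vertical lines 1 SD (n = 3 each). The groups separate for TUBB, TUBB4B, TUBA1B, TUBA4A and, narrowly, TUBA1C.

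TUBB, the class I beta tubulin that nearly every dividing cell expresses, showed the largest drop in reads. Its level was 1156, 1109 and 1144 CPM with BARD1 siRNA, against 1945, 1923 and 2020.0 CPM with Control siRNA. Every BARD1 siRNA library lay far below every Control siRNA library. TUBB averaged 1136 ± 24.3 CPM with BARD1 siRNA and 1963 ± 50.7 CPM with Control siRNA (SD, n = 3 each), 1.73-fold lower with BARD1 siRNA (log2 fold change of −0.79 with an SE of 0.04, edgeR adjusted p = 1.68e-21). The gene (ENSG00000196230; GRCh38 chromosome 6, 30720201 to 30725426, plus strand) ranked 35 in total counts among all genes of the table.

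TUBB4B, the class IVb beta tubulin, is likewise expressed in most tissues and is also a component of cilia. It was at 868, 845 and 918 CPM with BARD1 siRNA, against 1246, 1350.2 and 1208 CPM with Control siRNA, and the groups did not overlap. TUBB4B (ENSG00000188229; GRCh38 chromosome 9, 137241213 to 137243707, plus strand) fell 1.45-fold (log2 fold change of −0.53 with an SE of 0.05, edgeR adjusted p = 5.64e-14).

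TUBB6, the class V beta tubulin (ENSG00000176014; GRCh38 chromosome 18, 12307669 to 12344320, plus strand), did not pass the test, and its interval was narrow. It was at 252, 264 and 271 CPM with BARD1 siRNA, against 253, 274 and 271 CPM with Control siRNA, so the groups overlapped almost completely. The log2 fold change was −0.02 (SE 0.05, 95% interval −0.12 to 0.08, edgeR adjusted p = 0.801). AFG3L2 overlaps it on the opposite strand, shares 13.2% of its 100-base windows and had a mean of 1766 counts with a log2 fold change of −0.16 (edgeR adjusted p = 0.0270). No source used here gives the strand setting of the counting, so reads of such overlapping pairs may be split or lost.

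TUBB2A and TUBB2B, class II beta tubulins abundant in brain, lie on the minus strand of GRCh38 chromosome 6, at 3153669 to 3157526 (ENSG00000137267) and 3224261 to 3231730 (ENSG00000137285). TUBB2A was at 38.9, 33.5 and 34.1 CPM with BARD1 siRNA, against 36.55, 39.5 and 32.6 CPM with Control siRNA. The groups overlapped (log2 fold change −0.03, 95% interval −0.21 to 0.16, edgeR adjusted p = 0.845). TUBB2B, mutated in cortical malformations, had only 21, 9 and 24 counts with BARD1 siRNA and 34, 47 and 20 with Control siRNA. Those groups overlapped too, and the estimate of −0.85 had a wide 95% interval, −1.71 to 0.01 (edgeR adjusted p = 0.106). PSMG4, which overlaps TUBB2B on the opposite strand, had a mean of 296 counts, more than TUBB2B itself. The estimate for TUBB2B turned on single libraries: it was −1.13 without Control siRNA replicate 3 (edgeR adjusted p = 0.0351), but −0.51 without Control siRNA replicate 2 (edgeR adjusted p = 0.471) and −0.53 without BARD1 siRNA replicate 2 (edgeR adjusted p = 0.375). With the counts of both genes added, 653, 575 and 618 counts with BARD1 siRNA stood against 676, 719 and 607 with Control siRNA (log2 fold change −0.06, edgeR adjusted p = 0.648).

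TUBB3, the class III beta tubulin, is a marker of neurons and has been studied in taxane resistance (ENSG00000258947; GRCh38 chromosome 16, 89921392 to 89938761, plus strand). It was barely counted, with 34, 17 and 37 counts with BARD1 siRNA and 35, 29 and 25 with Control siRNA. The groups overlapped, and a log2 fold change of 0.04 with a 95% interval of −0.72 to 0.80 (edgeR adjusted p = 0.942) spans changes of either sign that were not detectable at this depth. Because AC092143.1 overlaps its exons, how many TUBB3 reads went uncounted cannot be read from the table.

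TUBA1B, the alpha tubulin of most dividing cells, was at 936, 905 and 928 CPM with BARD1 siRNA, against 1224, 1257 and 1407 CPM with Control siRNA. The groups were well apart, with Control siRNA replicate 3 the highest library. TUBA1B averaged 923 ± 16.2 CPM with BARD1 siRNA and 1296 ± 97.4 CPM with Control siRNA (SD, n = 3 each), 1.404-fold lower with BARD1 siRNA (log2 fold change of −0.49 with an SE of 0.05, edgeR adjusted p = 1.46e-12). It lies at GRCh38 chromosome 12, 49127782 to 49131397, on the minus strand (ENSG00000123416), beside TUBA1A and TUBA1C.

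TUBA4A, an alpha tubulin (ENSG00000127824), was much less abundant. Its level was 78.5, 79.3 and 74.3 CPM with BARD1 siRNA, against 114, 111 and 125 CPM with Control siRNA. The groups did not overlap, and TUBA4A (GRCh38 chromosome 2, 219249711 to 219278170, minus strand) fell 1.51-fold (log2 fold change of −0.59 with an SE of 0.06, edgeR adjusted p = 1.84e-11). STK16, which overlaps it on the opposite strand, had a mean of 255 counts and a log2 fold change of 0.14 (edgeR adjusted p = 0.393).

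TUBA1C (ENSG00000167553; GRCh38 chromosome 12, 49188736 to 49274603, plus strand) changed only slightly. It was at 677, 654 and 658 CPM with BARD1 siRNA, against 687, 709 and 768 CPM with Control siRNA. The groups lay close without overlapping, and the log2 fold change of −0.12 (SE 0.05, edgeR adjusted p = 0.0310) was not stable: its edgeR adjusted p was 0.168 without Control siRNA replicate 3, 0.140 without BARD1 siRNA replicate 2 and 0.0894 without BARD1 siRNA replicate 3.

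TUBA1A, the alpha isotype of developing neurons, was at 74.5, 77.4 and 73.7 CPM with BARD1 siRNA, against 73.4, 67.8 and 79.1 CPM with Control siRNA. The BARD1 siRNA libraries lay inside the Control siRNA range (log2 fold change 0.03, 95% interval −0.10 to 0.17, edgeR adjusted p = 0.735). TUBA1A (ENSG00000167552; GRCh38 chromosome 12, 49184796 to 49189324, minus strand) overlaps TUBA1C on the opposite strand, exons included. With the counts of TUBA1A, TUBA1B and TUBA1C added, 27411, 27611 and 28881 counts with BARD1 siRNA stood against 34851, 34639 and 40635 with Control siRNA, which gave −0.33 on the log2 scale (SE 0.05, edgeR adjusted p = 2.51e-08).

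**Figure D2:**
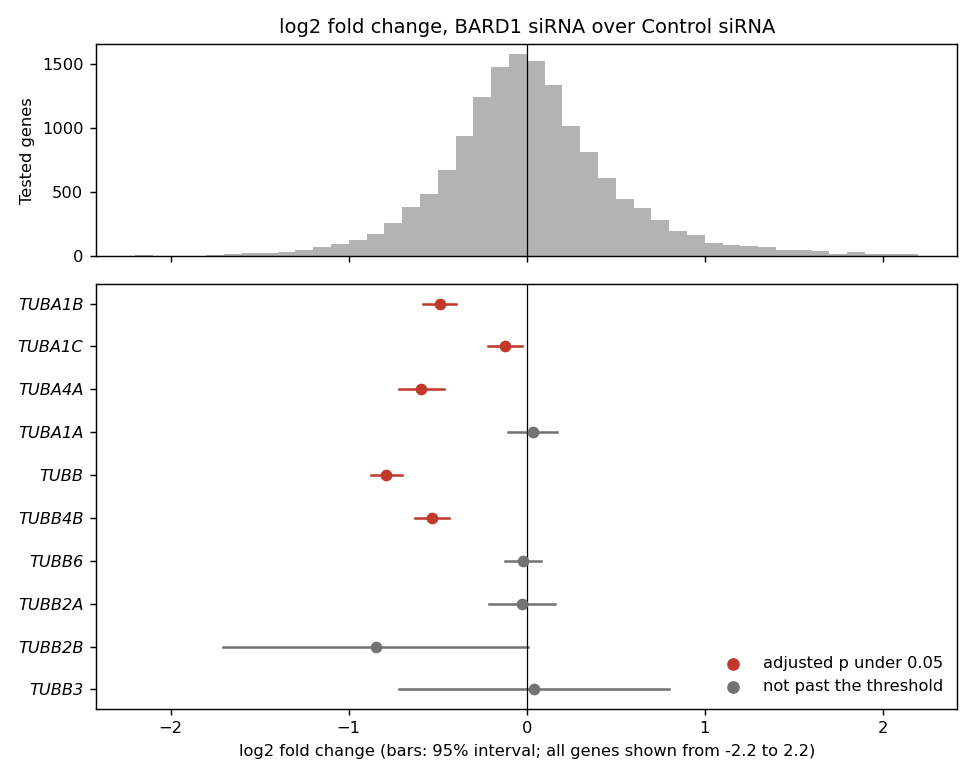
Upper panel, number of tested genes at each log2 fold change, BARD1 siRNA over Control siRNA; lower panel, the isotypes with 95% intervals, red where the edgeR adjusted p is under 0.05. TUBB at −0.79 lies furthest left of the called isotypes, and the intervals of TUBB2B and TUBB3 are several times wider than those of the abundant isotypes.

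Levels of different genes were compared per gene length, as TPM, in which counts are divided by the deposited gene length and scaled to a common sum. With BARD1 siRNA the order was TUBB4B at 1439 ± 57.4, TUBB at 1172 ± 25.5, TUBA1B at 894 ± 16.0, TUBA1C at 496 ± 10.2 and TUBB6 at 221 ± 7.70 TPM (SD, n = 3). With Control siRNA the same 5 genes led in the same order, at 2163 ± 126, 2104 ± 58.1, 1306 ± 101, 561 ± 34.2 and 232 ± 10.6 TPM (SD, n = 3). Libraries of TUBB4B and TUBB overlapped with Control siRNA, but not with BARD1 siRNA, where TUBB lay below TUBB4B; by reads not divided by length TUBB was above TUBB4B in both groups. TUBA4A was sixth in order with Control siRNA, at 103 ± 6.65 TPM and above TUBA1A and TUBB2A in every library. With BARD1 siRNA it came after both, at 65.7 ± 2.46 TPM, though its range overlapped that of TUBB2A. TUBA1A and TUBB2A, at 76.1 and 71.2 TPM with BARD1 siRNA and 77.3 and 75.4 TPM with Control siRNA, could not be told apart in either group. As counted, TUBB2B and TUBB3 were the lowest in both groups. They were at 1.69 and 1.36 TPM with BARD1 siRNA and 3.17 and 1.38 TPM with Control siRNA. Their libraries overlapped with BARD1 siRNA only. Because AC092143.1 overlaps the exons of TUBB3, reads of TUBB3 may have gone uncounted, and its place holds for counted reads only. The beta shares and sums below use the same counts.

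The make-up of each tubulin pool also differed between the groups. Among beta isotypes TUBB held 41.0%, 40.5% and 39.5% of the counts per length with BARD1 siRNA, against 46.2%, 43.9% and 47.8% with Control siRNA. TUBB6 held 7.28%, 7.86% and 7.65% with BARD1 siRNA, against 4.90%, 5.10% and 5.23% with Control siRNA. The groups did not overlap for either share, nor for TUBB2A, at 2.45% ± 0.203 with BARD1 siRNA and 1.65% ± 0.133 with Control siRNA (SD, n = 3 each). TUBB4B was at 49.5% ± 0.806 with BARD1 siRNA and 47.2% ± 1.82 with Control siRNA, and here the libraries overlapped. Which of TUBB4B and TUBB holds the larger share depends on the length used: by raw counts TUBB held 49.1% with BARD1 siRNA and 55.5% with Control siRNA, and TUBB4B 37.9% with BARD1 siRNA and 35.8% with Control siRNA. Among alpha isotypes TUBA1B held 58.4% ± 0.400 with BARD1 siRNA and 63.8% ± 0.393 with Control siRNA, while TUBA1C held 32.4% ± 0.1805 with BARD1 siRNA and 27.4% ± 0.347 with Control siRNA (SD, n = 3 each). TUBA4A had 4.29% with BARD1 siRNA against 5.04% with Control siRNA, and TUBA1A had 4.97% with BARD1 siRNA against 3.78% with Control siRNA, each with no overlap. Shares are parts of a sum, so a drop of the leading isotype raises the others without any change of their own.

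**Figure D3:**
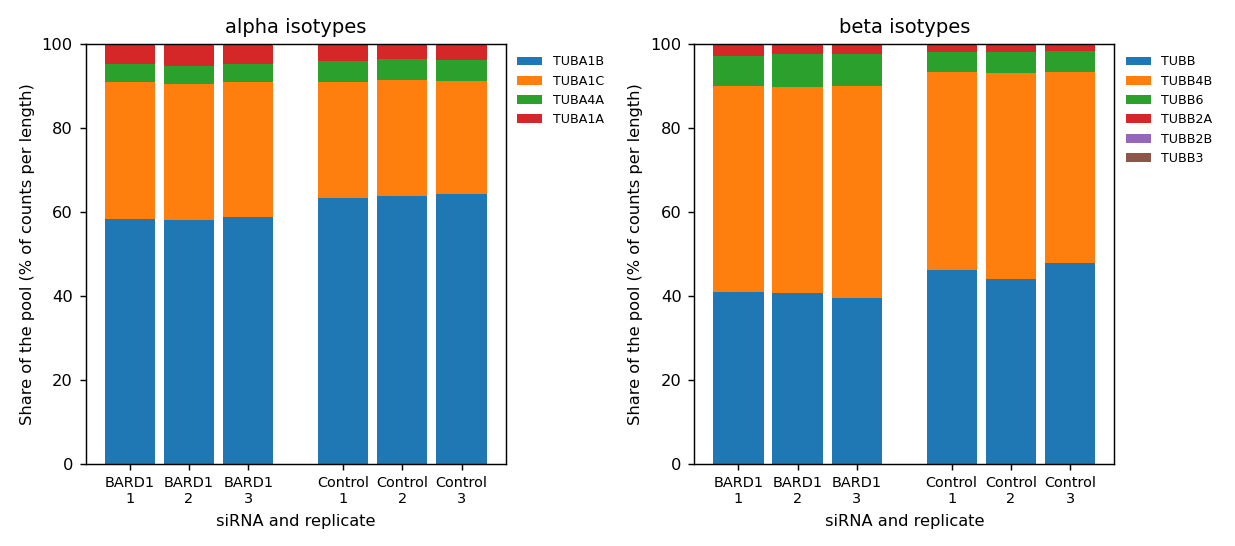
Share of each isotype in the summed counts per gene length of its family, per library, alpha left and beta right; BARD1 siRNA libraries stand left of Control siRNA libraries. The TUBA1B and TUBB segments are shorter in every BARD1 siRNA library, and TUBB2B and TUBB3 are too small to see.

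Ratios of counts within a library need no scaling between libraries; the pairs below were chosen after their values were seen and are given with no test. The ratio of TUBB to TUBB6 counts was 4.59, 4.21 and 4.21 with BARD1 siRNA, against 7.70, 7.03 and 7.46 with Control siRNA. The ratio of TUBA1B to TUBA1C counts was 1.38, 1.38 and 1.41 with BARD1 siRNA, against 1.78, 1.77 and 1.83 with Control siRNA. Neither pair of groups came close to overlapping, and the unequal change of these isotypes is seen with no scaling factor. Summed per family, beta isotypes reached 2906 ± 77.1 TPM with BARD1 siRNA and 4579 ± 104 TPM with Control siRNA, and alpha isotypes 1532 ± 24.3 TPM with BARD1 siRNA and 2047 ± 146 TPM with Control siRNA (SD, n = 3 each). The beta to alpha ratio of these sums was 1.87, 1.87 and 1.95 with BARD1 siRNA and 2.32, 2.36 and 2.05 with Control siRNA, lower in each BARD1 siRNA library but only just below Control siRNA replicate 3. All 10 isotypes together took 0.388% to 0.403% of a library's counts with BARD1 siRNA and 0.567% to 0.602% with Control siRNA.

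Sequence upstream of the 3 abundant isotypes that fell most in reads is shown for orientation, from RefSeq promoter windows on GRCh38.p14, cut where a GENCODE 29 exon begins. The stretches are chr6:30720102-30720200 on the plus strand for TUBB, chr9:137241037-137241212 on the plus strand for TUBB4B and chr12:49131398-49131645 on the minus strand for TUBA1B. Capitals mark CCAAT, the motif bound by NF-Y, searched on both strands.
TUBB: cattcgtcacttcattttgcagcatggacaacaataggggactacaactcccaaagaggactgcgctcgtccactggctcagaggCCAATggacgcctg
TUBB4B: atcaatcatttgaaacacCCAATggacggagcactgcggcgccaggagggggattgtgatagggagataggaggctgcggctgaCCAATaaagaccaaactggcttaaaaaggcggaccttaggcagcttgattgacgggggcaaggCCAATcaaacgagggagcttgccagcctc
TUBA1B: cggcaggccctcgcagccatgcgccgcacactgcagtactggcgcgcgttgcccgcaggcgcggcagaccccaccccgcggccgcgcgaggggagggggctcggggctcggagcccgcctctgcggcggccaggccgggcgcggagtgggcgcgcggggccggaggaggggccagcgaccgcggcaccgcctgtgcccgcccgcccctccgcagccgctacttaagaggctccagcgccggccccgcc
Over the 250 bases before the RefSeq start, CCAAT occurred in 7 of 10 isotypes and in 32.0% of 35116 promoter windows. These counts, unlike the stretches shown, were not cut at exons. GENCODE 29 exons took 244 of the 250 bases for TUBA1A, 182 for TUBB6 and 175 for TUBA1C. The CCAAT matches of these 3 genes lie in those exons. CCAAT was found 3 times in TUBB4B and 1 time in TUBB, and not in TUBA1B. Among the 5 isotypes called lower 3 held it, and among the other 5, 4 did. Those counts include the matches in exons, of TUBA1C among the lower and of TUBA1A and TUBB6 among the others. A link between the motif and the changes was not tested. GGGCGG, the GC box bound by SP1, occurred in 8 of 10 isotypes and 42.6% of windows, again on either strand. TTTGAA, a core of the cell cycle homology region of mitotic promoters, occurred in TUBB4B and TUBA1C and in 13.3% of windows. In TUBA1C its matches reach into an annotated exon. A match describes the letters only.

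Of 12 further members of the tubulin superfamily 7 could be tested, of which 2 fell and 1 rose, or 42.9% called beside 42.3% of all tested genes. TUBB4A, the class IVa beta tubulin of brain, had 10.1 ± 1.32 CPM with BARD1 siRNA and 21.8 ± 0.793 CPM with Control siRNA (SD, n = 3 each; log2 fold change −1.12, edgeR adjusted p = 1.54e-10). TUBG1, the gamma tubulin that nucleates microtubules, had a log2 fold change of −0.42 (edgeR adjusted p = 1.49e-08), and TUBE1, the epsilon tubulin of centrioles, rose by 0.30 (edgeR adjusted p = 0.0396).

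The genes that fold, modify and bind tubulin were read as 9 lists holding 114 genes, of which 101 could be tested; the other tubulins above are one of the lists. Of these 101, 41 fell and 11 rose, or 51.5% called beside the 42.3% of all tested genes. Over all tested genes 20.3% were lower and 22.0% higher, and the lists below are read beside these shares. The median log2 fold change of the 101 was −0.14. Of the factors of autoregulation, TTC5, its partner SCAPER and the deadenylase subunits CNOT1 and CNOT11, 0 of 4 passed in edgeR, and 0 had an unadjusted p under 0.05 or passed in DESeq2 or limma-voom. TTC5 was at 9.77 ± 0.309 CPM with BARD1 siRNA and 11.9 ± 1.24 CPM with Control siRNA (SD, n = 3 each), without overlap but with an edgeR adjusted p of 0.113.

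Of the 7 tubulin cofactors and their relatives, which assemble or take apart the dimer, 4 fell and 1 rose (71.4% called). Of all tested genes 42.3% were called. The log2 fold change was −0.43 for TBCD, which holds beta tubulin during assembly, −0.38 for TBCC and −0.33 for TBCEL, a relative of cofactor E known for destabilising tubulin, whose libraries overlapped. TBCA, which receives newly folded beta tubulin, rose by 0.17, again with overlapping libraries (edgeR adjusted p = 0.0354). Upstream of them, the chaperonin CCT and its partner prefoldin had 6 lower and 1 higher of 14 (50% called). Among them were the CCT subunits CCT8 and CCT7, at −0.36 and −0.32 on the log2 scale, and the prefoldin subunit VBP1, at −0.32. PFDN2, another prefoldin subunit, rose to 105 ± 2.48 CPM with BARD1 siRNA, against 52.2 ± 2.31 CPM with Control siRNA (SD, n = 3 each; log2 fold change 1.00, edgeR adjusted p = 1.51e-18).

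Enzymes that modify tubulin tails and the lattice had 7 lower and 0 higher of 20 tested in edgeR; 1 was higher at an unadjusted p under 0.05, and 0 in DESeq2 and limma-voom. The share called, 35%, lies below the 42.3% of all tested genes. The vasohibin VASH2, which removes the C-terminal tyrosine of alpha tubulin, had a log2 fold change of −1.24 but was scarce, at 0.9754 ± 0.275 CPM with BARD1 siRNA and 2.31 ± 0.804 CPM with Control siRNA (SD, n = 3 each). SVBP, its binding partner, was at −0.46 and the glutamylase TTLL5 at −0.37 on the log2 scale, both called lower. Also among the 7 were the deacetylase HDAC6, at −0.23, and the ligase TTL, which restores the tyrosine, at −0.14; these genes were picked after their values were seen.

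Proteins that bind the microtubule lattice went both ways, with 5 lower and 3 higher of 14 (57.1% called, against 42.3% of all tested genes). MAP1B rose to 397 ± 6.38 CPM with BARD1 siRNA, against 242 ± 18.3 CPM with Control siRNA (SD, n = 3 each; log2 fold change 0.71, edgeR adjusted p = 4.34e-17). MAP7D1, a cofactor of conventional kinesin, rose by 0.66 and MAP1S by 0.34 on the log2 scale. In the other direction, MAP1A was at −1.16, MAP9 at −0.40 and the scarce MAP7D2 at −1.72. MAP4, the main lattice protein of non-neuronal cells, had a log2 fold change of −0.04 and did not pass (edgeR adjusted p = 0.507).

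Among destabilisers and severing enzymes 4 of 9 fell and 1 rose (55.6% called, against 42.3% of all tested genes). STMN1, the stathmin that binds free tubulin dimers, fell to 200.2 ± 5.82 CPM with BARD1 siRNA, against 335 ± 12.05 CPM with Control siRNA (SD, n = 3 each; log2 fold change −0.74, edgeR adjusted p = 3.90e-18). Its relative STMN3 went the other way and rose by 0.78 (edgeR adjusted p = 1.20e-14). The fidgetin FIGN and its relative FIGNL1 were lower, at −0.71 and −0.54. Plus-end proteins were divided, with 3 lower and 3 higher of 10 (60% called, against the same 42.3%). The polymerase CKAP5 was at −0.47, the end-binding protein MAPRE2 at −0.63 and SLAIN1, a partner of CKAP5, at −0.59 on the log2 scale. CLIP2 rose by 1.04, MAPRE3 by 0.41 and MAPRE1, the main end-binding protein of dividing cells, by 0.13.

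The nucleation list of gamma-tubulin ring and augmin subunits had 10 lower and 1 higher of 16 (68.8% called, against 42.3% of all tested genes). TUBGCP5 of the ring was at −0.37, and the augmin subunits HAUS4 and HAUS1 were at −0.46 and −0.44 on the log2 scale. HAUS6, another augmin subunit, was the 1 that rose, by 0.25 on the log2 scale (edgeR adjusted p = 0.00334).

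**Figure D4:**
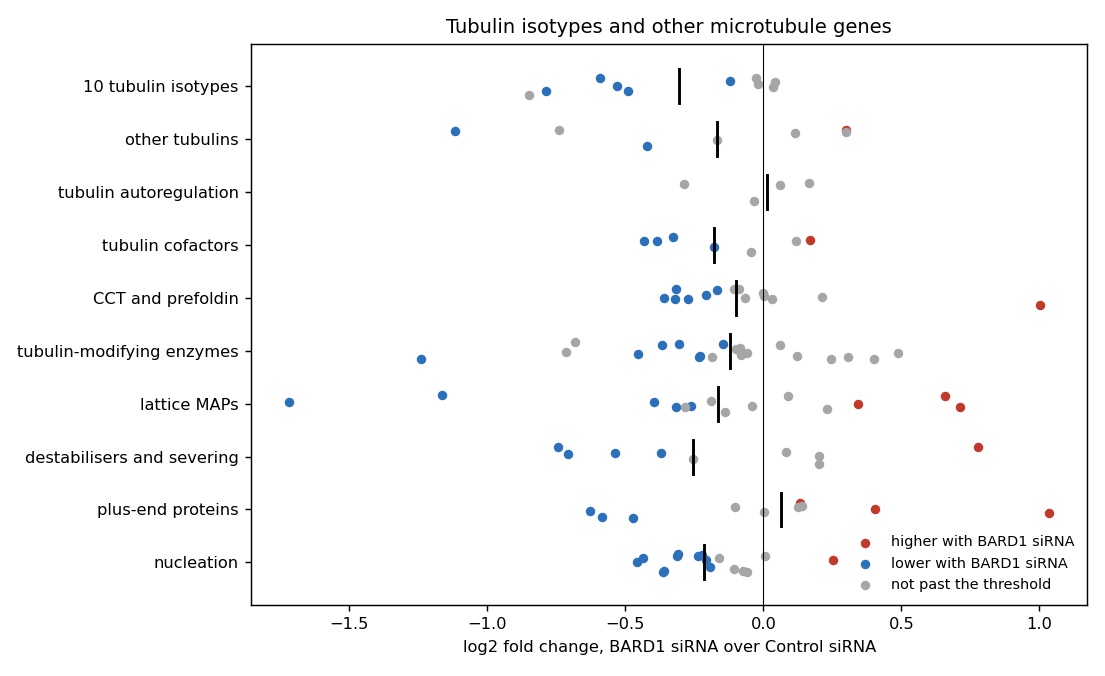
log2 fold change, BARD1 siRNA over Control siRNA, of every tested gene in each list (points, red higher, blue lower, grey not past the threshold), with the list median as a black bar. The tubulin isotypes have the lowest median, −0.31, and the plus-end proteins, at 0.06, the highest.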

How the data were processed

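Per the labels' protocols, poly(A) RNA of 6 SKOV3ip1 cultures was sequenced. The authors deposited raw read counts per gene, with each gene's length, per the file headers; the submitters' processing notes name HISAT2, CASAVA and GRCh38 (hg38). No source used here names tool versions, the counting program, the annotation release or the strand setting. All 10 isotypes have the coordinates of GENCODE 29.

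Counts were tested with edgeR 4.0.16 in R 4.3.3 (robust quasi-likelihood test, TMM factors, group as the only term). The filterByExpr function (minimum count 10, minimum total 15) left 15271 genes, over which p-values were Benjamini-Hochberg adjusted, with a threshold of 0.05. Fold changes set BARD1 siRNA over Control siRNA, and SE is the absolute log2 fold change over the square root of F. CPM used TMM-scaled library sizes. TPM used deposited gene lengths, which join all annotated exons and so understate genes expressed mainly as short transcripts. The test was tried on simulated counts in which far fewer genes changed than were called here. That trial therefore does not cover a change as wide as in these data. Replicate pairs of a group differed by 3.30 to 7.76 times counting noise (chi-square per degree of freedom), so none is a duplicate library.

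Members and lists were chosen with earlier results of these data known. Besides the 10 isotypes and BARD1, the text names up to 3 genes per direction and list with the largest change past the threshold, and TTC5, STMN1, MAP4, TUBG1 and TBCA. Other names were chosen after their values were seen. Coding ends of the alpha isotypes are not reported here. Alternatives tried: RLE or upper-quartile factors, library size alone, DESeq2 1.42.0, limma-voom (limma 3.58.1), other filters, protein-coding genes only, a replicate block, no robust estimation, near-copies added together, and leaving out each library.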

Additional observations from a re-analysis of the deposited data

How the results depend on the processing

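Over 17 alternatives 4 or 5 isotypes were called lower and 0 higher, and leaving out 1 library gave 4 to 5 lower. With near-copies added together the count was 4, in which the sum of TUBA1A, TUBA1B and TUBA1C stands as a single isotype. TUBB, TUBB4B, TUBA1B and TUBA4A kept their direction and stayed past the threshold under all 16 alternatives that keep the isotypes apart, with log2 fold changes of −0.85 to −0.77 for TUBB, −0.60 to −0.49 for TUBB4B, −0.56 to −0.43 for TUBA1B and −0.66 to −0.54 for TUBA4A. TUBA1C passed in 13 of these. TUBB6 ranged from −0.08 to 0.01 and TUBA1A from −0.03 to 0.09, never past the threshold in these. With near-copies added together the value standing for TUBA1A was −0.33, since most counts of that sum are those of TUBA1B. With the replicate number as a block, 5 isotypes were lower and 0 higher, and 41 genes of the microtubule lists were lower and 11 higher, as without it. Same-numbered libraries deviated together in no case, with correlations of −0.0091, −0.015 and −0.022, and none correlated best with its own number, so the samples were not treated as paired. Those lists had 33 to 47 genes lower and 8 to 12 higher over 16 alternatives. With raw counts in place of counts per length, the difference in share, BARD1 siRNA minus Control siRNA, moved by more than the replicate SD for TUBA1A, TUBA1C, TUBB2A and TUBB6, to 0.998, 5.44, 0.512 and 3.82 percentage points, with the same sign. At 9 to 47 counts per library, TUBB2B and TUBB3 allow no statement on small changes.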

Other observations

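Rows of tubulin pseudogenes, which are near-copies of tubulin genes, also held reads, and 3 of these genes could be tested. TUBBP1 had 144, 109 and 139 counts with BARD1 siRNA, against 257, 190 and 314 with Control siRNA (log2 fold change of −0.89 with an SE of 0.16, edgeR adjusted p = 6.83e-06). TUBAP2 had 13, 12 and 19 counts with BARD1 siRNA, against 47, 38 and 48 with Control siRNA (log2 fold change of −1.53 with an SE of 0.39, edgeR adjusted p = 0.000926). The groups did not overlap for either. TUBBP5 had 21, 25 and 29 counts with BARD1 siRNA, against 31, 31 and 36 with Control siRNA, and did not pass (log2 fold change −0.33, edgeR adjusted p = 0.512). TUBBP1 shares 3.80% of the 100-base windows of TUBB. All alpha and beta pseudogene rows together held 174 to 199 counts per library with BARD1 siRNA and 271 to 404 with Control siRNA, while the 10 isotypes held 66358 to 71429 with BARD1 siRNA and 97697 to 106595 with Control siRNA. Whether these reads came from the pseudogenes was not tested.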
